A study of Mus musculus with 232 samples.

Results

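The genes described here are 9 translation genes of the mouse: the elongation factor genes Eef1a1, Eef1b2, Eef1d, Eef1g and Eef2, together with Cnbp, Tpt1, Naca and Pabpc1. They are 9 of 42493 genes in the deposited files and were chosen by name, the list being led by Eef1g and Cnbp, which were selected on their higher normalized counts after transfection of miR-294. Values of that contrast therefore describe the choice and support nothing further. Its mock-transfected cells also enter the comparisons with wild-type and with let-7-transfected cells. Values of Eef1g and Cnbp in those comparisons are therefore not independent of the choice. Single embryonic stem cells (ESCs) were captured on a Fluidigm C1 circuit, a chip that isolates and lyses 1 cell per site, and each cell's mRNA was sequenced after reverse transcription. The cells, read in 232 sequencing runs, were 16 wild-type (WT) V6.5 cells, 60 mock-transfected Dgcr8-/- cells, 58 Dgcr8-/- cells transfected with a miR-294 mimic and 48 Dgcr8-/- cells transfected with a let-7 mimic. The 3 Dgcr8-/- conditions share the deletion of Dgcr8, whose protein is needed to process most primary miRNA transcripts, and every condition was grown with serum, LIF and 2i, a pair of inhibitors (PD0325901 and CHIR99021) that holds ESCs in the pluripotent state. Capture followed 24 h after transfection with Dharmafect 1. The let-7 mimic is LET_7I in the sample titles, let-7b in the series text and let-7c in the methods, and is called let-7 here. Of the miR-294-transfected cells, 3 are titled MIR_294 and the others miRNA294. Leaving out these 3 moved no log2 ratio of the 9 genes by more than 0.03.

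One circuit was used for each condition and the labels name no separate cultures, so each condition is 1 sample and the cells within it are not replicates of the condition. Circuit and condition cannot be told apart. No p-value or standard error was therefore computed, and each difference is given with the spread over cells, which is a spread within 1 culture.

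Translation elongation is a cycle in which eEF1A, bound to GTP, brings each aminoacyl-tRNA to the ribosome, the eEF1B complex reloads eEF1A with GTP, and eEF2 moves the ribosome along by 1 codon. The mRNAs of these factors, like those of the ribosomal proteins, belong to the TOP class: they begin with a cytosine followed by a run of pyrimidines (a 5′ terminal oligopyrimidine tract), and their translation rises and falls as a class with mTORC1 activity, with Larp1 as a repressor that binds the tract. In ESCs the miR-294 family is abundant and promotes proliferation, whereas let-7 miRNAs accumulate as cells differentiate.

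The mimics are shown with the seed, bases 2 to 8 from the 5′ end, in capitals, since the seed decides which mRNAs a miRNA pairs with. The sequences are the RefSeq mature forms, and the 3 let-7 names share one seed.
mmu-miR-294-3p: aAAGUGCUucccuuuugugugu
mmu-let-7b-5p: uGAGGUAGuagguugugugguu
mmu-let-7c-5p: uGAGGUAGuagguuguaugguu
mmu-let-7i-5p: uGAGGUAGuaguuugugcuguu
The DNA complement of the miR-294 seed (AGCACTT) was present 0 times in the longest annotated 3′ UTR of each of the 9 genes, and so was that of the let-7 seed (CTACCTC). Of 20294 genes with an annotated 3′ UTR, 15.7% held the first and 10.2% the second. The absence says only that these letters are not in those UTRs, the shortest of which was that of Naca with 130 bases and the longest that of Cnbp with 1424 bases.

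The start sites were searched for a C followed by at least 4 pyrimidines (C or T) within 10 bases on either side of the RefSeq start (GRCm38.p6). Of the 6 genes with an entry in the promoter table, 2 held such a run on the sense strand, Eef1a1 and Naca. Among all 27025 promoters 25.5% held one, and 27.8% held one on the other strand, while 50% of 58 ribosomal protein promoters did, against 15.5% on their other strand. The other strand held a run in 3 of the 6 genes, Eef1a1, Naca and Eef1b2. Starting exactly at the annotated first base, the run was found in 22.4% of ribosomal protein promoters, 2.49% of all promoters and 0 of the 6. Windows of 25 bases around the start are shown for the longest run, for the other run and for Cnbp, with a run inside the searched bases in capitals and the windows at chr9:78481710-78481734 (minus strand), chr10:128035336-128035360 (plus strand) and chr6:87851087-87851111 (minus strand).
Eef1a1: ctccgCCCTCTTCCCgagggtgggg
Naca: tcgttCTCTTaaagaggaaacccgg
Cnbp: attctgattggctggcctggcttcc
The last 5 bases of the Cnbp window also form such a run but lie past the searched bases. The annotated first base need not be the start used in these cells. Eef1d, Eef1g and Pabpc1 had no entry.

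Total counts per cell ranged from 513521 to 3979274, with medians of 1307481 in WT, 1574732 in Dgcr8-/-, 1435139 in miR-294-transfected and 1524918 in let-7-transfected cells. Dgcr8 itself had a mean of 118 normalized counts in WT cells and 51.5, 66.6 and 40.2 in mock, miR-294-transfected and let-7-transfected Dgcr8-/- cells, and counts of the whole gene do not show which part of the transcript was read. Of 8 ESC markers (such as Pou5f1, Nanog and Sall4), 8 were counted in over 90% of WT and of miR-294-transfected cells, 7 in Dgcr8-/- cells and 5 in let-7-transfected cells. Their summed level had a median of 4464 in WT, 5293 in Dgcr8-/-, 6297 in miR-294-transfected and 2591 in let-7-transfected cells. Fibroblast markers summed to a median of 0 in every condition, with Col1a2, Col3a1 and Lum at 0 in all cells and a highest value of 350 in 1 let-7-transfected cell. Primitive endoderm markers also had a median of 0 in every condition, with Gata6 and Sox17 at 0 in all cells and a highest value of 469 in 1 let-7-transfected cell.

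Some libraries stood apart. Cell numbers here and below are a running count of the cells of a condition in the order of deposition. They are not the numbers in the sample titles. The chi-square per gene between 2 runs of the same cell lay between 1.27 and 6.19 for 48 of 50 cells with 2 runs, but was 179 for WT cell 3 and 98.3 for let-7 cell 19, in the range of different cells. Conversely, 4 pairs of cells differed no more than runs of a cell do: let-7 cells 43 and 44 (1.82), 34 and 35 (2.49) and 2 and 3 (5.42), and miR-294 cells 11 and 12 (2.67). The other 16467 pairs were at 35.4 or above. Counting each of the 4 pairs once moved the 36 log2 ratios given below (9 genes in 4 comparisons) by at most 0.06, and leaving out WT cell 3 and let-7 cell 19 moved them by at most 0.07.

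The 9 genes were counted in every cell. Together they took a median of 1.82% of a cell's counts in WT, 1.93% in Dgcr8-/-, 1.96% in miR-294-transfected and 1.63% in let-7-transfected cells. Per length, Eef1a1, the tRNA-delivering factor, was by far the most abundant, with 11489 ± 3115 TPM (transcripts, scaled to a total of 1000000 in a cell, SD over 60 cells) in Dgcr8-/- cells. The other 8 lay between 549 ± 292 TPM for Eef1d and 1578 ± 538 TPM for Eef1b2 in the same cells. The levels that follow are counts divided by a size factor of the cell, a scale on which a gene is compared between conditions but not with another gene. On this scale the lowest value of any of the genes in any cell was 8.34, for Eef1d in a let-7-transfected cell.

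**Figure D1:**
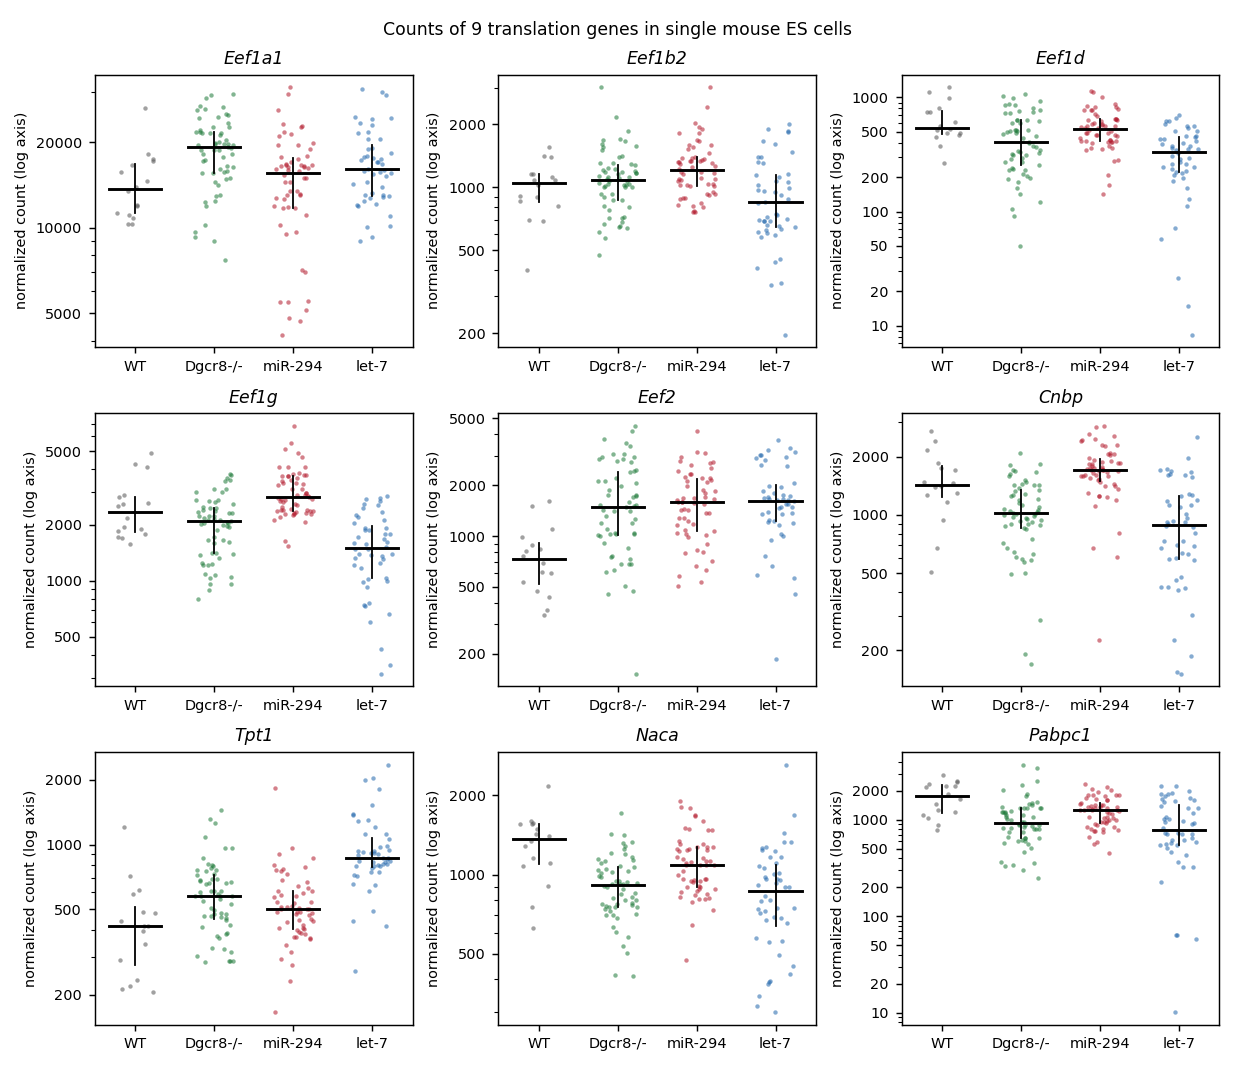
Normalized counts (log axis) of the 9 genes in single cells of the 4 conditions, with 1 point per cell, a bar at the median and a line from the 25th to the 75th percentile. Eef1g and Cnbp were highest in miR-294-transfected cells, Tpt1 in let-7-transfected cells, and Eef2 was lower in WT cells than in the 3 Dgcr8-/- conditions.

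Within the eEF1B complex, Eef1g (ENSMUSG00000071644, chr19:8967041-8978479, plus strand), the structural subunit, varied most with miR-294. Normalized counts ran from 802 over a median of 2094 to 3758 in Dgcr8-/- cells, and from 1544 over 2842 to 6853 in miR-294-transfected cells. They ran from 1584 over 2361 to 4864 in WT cells and from 316 over 1511 to 2861 in let-7-transfected cells. The ranges overlapped, but 55 of 58 miR-294-transfected cells lay above the Dgcr8-/- median and 10 lay above the highest Dgcr8-/- cell. The means were 3100.5 ± 970.1 (SD, 58 cells) and 2072 ± 765 (SD, 60 cells), a log2 ratio of 0.58, or 1.5-fold. Of all pairs of 1 cell from each condition, the miR-294-transfected cell was the higher with a probability of 0.81. The let-7-transfected mean of 1564 ± 684 (SD, 48 cells) was lower than that of Dgcr8-/- cells by a log2 ratio of -0.41, and the WT mean was 2587 ± 1004 (SD, 16 cells). The order of the means was thus miR-294, WT, Dgcr8-/-, let-7, and each step between neighbours was smaller than 1 SD over cells.

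After miR-294, the contrast on which Eef1g was chosen, the guanine nucleotide exchange subunits of eEF1B lay closer to the mock level than Eef1g. After let-7 this did not hold for Eef1d, at a log2 ratio of -0.46 against -0.41 for Eef1g. Eef1b2 (ENSMUSG00000025967, chr1:63176825-63180486, plus strand) had means of 1017 ± 298 in WT, 1132 ± 423 in Dgcr8-/-, 1277 ± 422 in miR-294-transfected and 941 ± 443 in let-7-transfected cells (SD over cells). Eef1d (ENSMUSG00000055762, chr15:75894205-75909556, minus strand) had means of 651 ± 274, 460.4 ± 259.4, 552 ± 211 and 334 ± 176 in the same order. Both were highest or second highest in miR-294-transfected cells and lowest in let-7-transfected cells, with log2 ratios against Dgcr8-/- cells of 0.17 and 0.26 after miR-294 and of -0.27 and -0.46 after let-7. These differences were smaller than 1 SD over cells.

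Eef1a1 (ENSMUSG00000037742, chr9:78478449-78489151, minus strand) was lower after miR-294, where the means of the 3 exchange complex genes were higher, and lower after let-7, as theirs were. Its counts ran from 7713 over a median of 19181 to 29680 in Dgcr8-/- cells, and from 4198 over 15561 to 31366 in miR-294-transfected cells. They ran from 10269 over 13718 to 26435 in WT cells and from 8999 over 16064 to 30957 in let-7-transfected cells. The miR-294-transfected cells had a low tail, with 9 of 58 cells below the lowest Dgcr8-/- cell and 12 above the Dgcr8-/- median. The log2 ratio of the means was -0.34 for miR-294 and -0.15 for let-7 against Dgcr8-/- cells, and 0.39 for Dgcr8-/- against WT cells. In miR-294-transfected cells the log2 level of Eef1a1 had a Pearson r of -0.69 with the number of genes detected in the cell (58 cells) and that of Eef1g an r of -0.51, against -0.33 for each in Dgcr8-/- cells. The part of library complexity in the result was not tested. Of the 31-base stretches of Eef1a1 transcripts 46.5% also occur in transcripts of other genes, among them Gm13456, so that the counting could split its reads. Adding the counts of genes that share at least 50% of their own stretches moved the 36 log2 ratios by at most 0.10 and turned none of their signs.

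The ratio of Eef1g to Eef1a1 within a cell needs no scaling between cells. After miR-294 it uses the Eef1g values that chose the list, and it does not show in which direction either gene differed. Within conditions the levels of both genes had a Pearson r of 0.50 in miR-294-transfected, 0.34 in Dgcr8-/-, 0.34 in let-7-transfected and 0.13 in WT cells. The log2 ratio of Eef1g to Eef1a1 counts ran from -4.77 over a median of -3.20 to -1.52 in Dgcr8-/- cells and from -3.24 over -2.29 to -0.50 in miR-294-transfected cells. It ran from -4.06 over -2.54 to -1.47 in WT cells, and in let-7-transfected cells from -5.58 over -3.33 to -2.52. The miR-294-transfected and WT cells thus lay high, and the groups overlapped. The means differed by 1.04 between miR-294-transfected and Dgcr8-/- cells, and the miR-294-transfected cell was the higher of a pair with a probability of 0.92. The mean of Dgcr8-/- cells less that of WT cells was -0.71, and these Dgcr8-/- cells are also those on which Eef1g was chosen. With the 4 near-identical pairs counted once and WT cell 3 and let-7 cell 19 left out, the difference after miR-294 was 1.02.

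Eef2 (ENSMUSG00000034994, chr10:81176631-81182498, plus strand), which moves the ribosome by 1 codon, was lower in the WT cells than in the 3 Dgcr8-/- conditions, which had similar means. Its counts ran from 342 over a median of 728 to 1613 in WT cells and from 153 over 1490.1 to 4503 in Dgcr8-/- cells. In miR-294-transfected cells they ran from 503 over 1590 to 4215, and in let-7-transfected cells from 188 over 1618 to 3697. The 3 Dgcr8-/- conditions lay together above WT, with 51 of 60 Dgcr8-/- cells and 52 of 58 miR-294-transfected cells above the WT median. The means were 787 ± 374 (SD, 16 cells) in WT and 1720 ± 1007 (SD, 60 cells) in Dgcr8-/- cells, a log2 ratio of 1.13. Many other genes differed as much in this direction. Of 10776 genes kept after a filter on low counts, 29.8% were higher in Dgcr8-/- than in WT cells by at least 1. Eef2 stood at percentile 72.8 of these genes. Its ratio was also below 1.29, the 90th percentile of 529 genes of like abundance. Between miR-294-transfected and WT cells the log2 ratio of Eef2 was 1.09, or 1.59 SD over cells, the widest step between neighbouring conditions for any of the 9 genes. Against Dgcr8-/- cells it was -0.04 after miR-294 and 0.01 after let-7.

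Cnbp (ENSMUSG00000030057, chr6:87842615-87851106, minus strand) encodes a zinc finger protein that binds single-stranded nucleic acids, mRNAs included. Its counts ran from 169 over a median of 1021 to 2081 in Dgcr8-/- cells and from 227 over 1709 to 2885 in miR-294-transfected cells. They ran from 507 over 1434 to 2709 in WT cells and from 152 over 882 to 2526 in let-7-transfected cells. As for Eef1g, miR-294-transfected and WT cells lay high: 54 of 58 miR-294-transfected cells were above the Dgcr8-/- median and 11 were above the highest Dgcr8-/- cell. For both genes, a level above that of the Dgcr8-/- cells after miR-294 is the choice itself. The means were 1725 ± 510 (SD, 58 cells) and 1066 ± 413 (SD, 60 cells), a log2 ratio of 0.69, and the miR-294-transfected cell was the higher of a pair with a probability of 0.85. The WT mean was 1512 ± 585 (SD, 16 cells), and the log2 ratio of Dgcr8-/- against WT cells was -0.50. Cnbp shared 0.505% of its 31-base stretches with other genes, the least of the 9. Within cells, its ratio to Eef1a1 was higher after miR-294 by 1.16 on the log2 scale, in means over cells. After miR-294 this ratio uses the Cnbp values that chose the list. The difference of Dgcr8-/- less WT cells was -0.90, and these Dgcr8-/- cells are also those on which Cnbp was chosen.

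Tpt1 (ENSMUSG00000060126, chr14:75845093-75848525, plus strand) encodes the translationally controlled tumour protein and was highest after let-7. Its counts ran from 284 over a median of 577 to 1449 in Dgcr8-/- cells and from 258 over 865 to 2358 in let-7-transfected cells. They ran from 206 over 416 to 1209 in WT cells, and in miR-294-transfected cells from 165 over 501 to 1844. The let-7-transfected cells lay higher than the others, and 44 of 48 were above the Dgcr8-/- median. The means were 977 ± 413 (SD, 48 cells) and 610.4 ± 250.6 (SD, 60 cells), a log2 ratio of 0.68 with a probability of 0.82, and 1.19 SD over cells. The log2 ratio after miR-294 was -0.17. Tpt1 also had the widest spread between runs of the same cell, a median absolute log2 difference of 0.11 over 48 cells, against 0.04 for Cnbp, the narrowest. Tpt1 was high in the let-7-transfected cells. In these cells 6 of 8 ESC markers were lower than in Dgcr8-/- cells by at least 0.5 on the log2 scale. Of 11139 genes kept after a filter on low counts, 19.4% were lower by as much. The part of the lower markers in the Tpt1 result was not tested. The paper reports no significant change of the pluripotency markers it examined, and no differentiation by let-7 under these culture conditions.

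Naca (ENSMUSG00000061315, chr10:128035575-128048637, plus strand), a subunit of the complex that binds nascent chains as they leave the ribosome, and Pabpc1 (ENSMUSG00000022283, chr15:36595661-36609668, minus strand), which coats the poly(A) tail, were highest in WT cells. Naca had means of 1313 ± 377 in WT, 922 ± 256 in Dgcr8-/-, 1122 ± 303 in miR-294-transfected and 884 ± 414 in let-7-transfected cells (SD over cells). The means of Pabpc1 were 1765 ± 672, 1084 ± 662, 1257 ± 432 and 954 ± 604 in the same order. Against WT cells, the Dgcr8-/- mean was lower by a log2 ratio of -0.51 for Naca and -0.70 for Pabpc1, and 3 and 7 of 60 Dgcr8-/- cells lay above the WT median. After miR-294 the log2 ratios against Dgcr8-/- cells were 0.28 and 0.21, so that miR-294-transfected cells lay between Dgcr8-/- and WT cells for both genes.

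A log2 ratio of at least 0.5 (1.41-fold) in either direction was taken as past the fold, and counts of genes are read against the share of all genes that passed the filter on low counts (a mean of 5 or more over cells). After miR-294, 2 of the 9 genes were past the fold upwards (Eef1g and Cnbp, for which the list was chosen) and 0 downwards, against 13.6% and 38.9% of 11125 genes. Among the 529 genes at least as abundant as the least abundant of the 9, 3.02% were past it upwards and 21.6% downwards. The median log2 ratio was 0.21 over the 9 genes (Eef1g and Cnbp included), -0.28 over all genes and -0.09 over the abundant genes. After let-7, 1 of 9 was past the fold upwards (Tpt1) and 0 downwards, against 35% and 19.4% of 11139 genes and 11.3% and 18.3% of the abundant genes, with medians of -0.17 over the 9 and -0.06 over the abundant genes. For Dgcr8-/- against WT cells, 1 was past it upwards (Eef2) and 3 downwards (Cnbp, Naca and Pabpc1), against 44.1% and 20.3% of 10776 genes and 29.5% and 7.18% of the abundant genes, with medians of -0.32 over the 9 and 0.17 over the abundant genes. For miR-294-transfected against WT cells the counts were 1 (Eef2) and 0, against 33.3% and 27.6% of 10772 genes and 21.2% and 10.6% of the abundant genes. These comparisons share the Dgcr8-/- or the WT cells. The Dgcr8-/- cells are also those on which Eef1g and Cnbp were chosen, so the count with Cnbp against WT cells is not independent of the choice.

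The 95% Poisson interval of a gene's summed count in a condition was 0.172% to 2.16% of the count to either side and covers counting error only, since reads without molecular identifiers are not independent molecules. With total counts in place of size factors, the median log2 ratio of all genes went from -0.28 to -0.07 for miR-294 and from 0.18 to 0.11 for let-7 against Dgcr8-/- cells, and from 0.33 to 0.11 for Dgcr8-/- against WT cells. The shares past the fold after miR-294 were then 19.99% upwards and 29.8% downwards. Eef1g and Cnbp, which were chosen on the miR-294 contrast, stayed past the fold upwards in it. The sign turned for Tpt1 and Eef2 after miR-294, for Eef2 after let-7 and for Eef1b2 in Dgcr8-/- against WT cells. In Dgcr8-/- against WT cells, Cnbp at -0.503 was just inside the fold and Eef1d at -0.499 just outside, and leaving out single cells moved Cnbp, Naca and Eef1d across it (to -0.42 at most for Cnbp and -0.45 for Naca, and to -0.55 for Eef1d). Leaving out WT cell 11 took Tpt1 from 0.43 to 0.60.

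**Figure D2:**
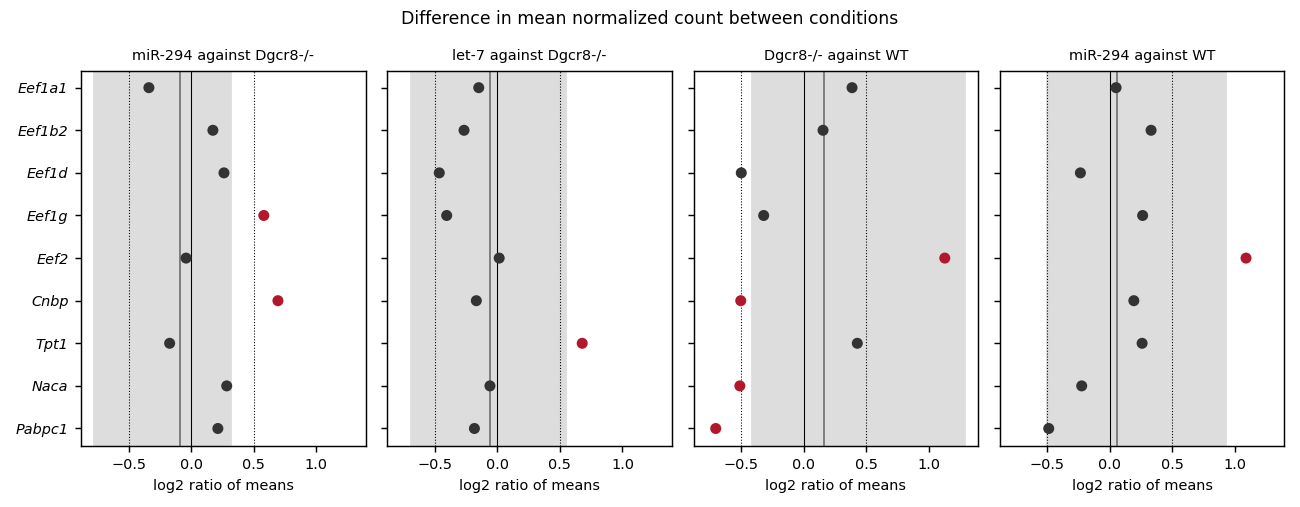
Log2 ratio of mean normalized counts of each of the 9 genes (points, red where at least 0.5 in either direction, dotted lines) in the 4 comparisons, with the range from the 10th to the 90th percentile (grey) and the median (grey line) of 529 genes of like abundance. Eef1g and Cnbp, which were chosen on the miR-294 contrast, lay beyond its 90th percentile of 0.32. Cnbp, Eef1d, Naca and Pabpc1 lay below the 10th percentile of -0.41 in Dgcr8-/- against WT cells. The Dgcr8-/- cells there are also those on which Cnbp was chosen.

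Ribosomal protein genes, the other main group of TOP mRNAs, gave a second reference within each cell. Of 79 genes, 78 passed the filter on low counts. After miR-294, 71 of these 78 had a log2 ratio above 0 against Dgcr8-/- cells, with a median of 0.21, and 3 were past the fold upwards (Rpl12, Rpl27 and Rpl31) and 1 downwards (Rpl5), or 3.85% and 1.28% against 13.6% and 38.9% of all genes. After let-7, 1 was past it upwards (Rpl12) and 1 downwards (Rpl5), or 1.28% each, against 35% and 19.4% of all genes. In Dgcr8-/- against WT cells, 15 (19.2%) were past it downwards, close to the 20.3% of all genes, and 3 (3.85%) upwards, against 44.1% of all genes, with a median of -0.20. Their share of a cell's counts had a median of 5.95% in WT, 5.23% in Dgcr8-/-, 6.40% in miR-294-transfected and 5.06% in let-7-transfected cells. Rpl4 and Rpsa, the 2 with the most counts, had log2 ratios of -0.04 and 0.06 after miR-294. Ribosomal protein genes have many near-identical pseudogenes, between which the counting could split reads.

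Relative to the summed ribosomal protein counts of the same cell, the 9 genes differed in direction. In means over cells, miR-294-transfected cells were above Dgcr8-/- cells by 0.41 on the log2 scale for Eef1g and by 0.54 for Cnbp. Both genes were chosen on this contrast, so these values describe the choice. For Eef1a1 the miR-294-transfected cells were below Dgcr8-/- cells, by -0.62. For Eef1a1 a miR-294-transfected cell exceeded a Dgcr8-/- cell with a probability of 0.15. The ratio of Tpt1 was higher after let-7 by 0.61, and that of Eef2 was higher in Dgcr8-/- than in WT cells by 1.14. For Eef1b2 and Naca the differences after miR-294 were -0.02 and 0.08.

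**Figure D3:**
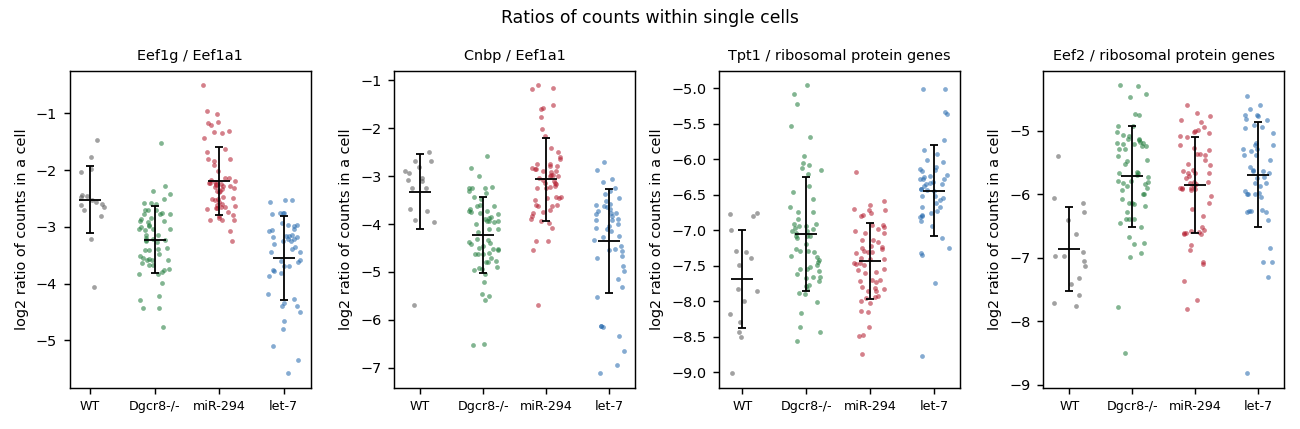
Log2 ratios of counts within single cells of the 4 conditions (1 point per cell, mean and SD over cells): Eef1g and Cnbp over Eef1a1, and Tpt1 and Eef2 over the summed ribosomal protein genes. The Eef1g to Eef1a1 ratio had a mean of -2.19 in miR-294-transfected and -3.23 in Dgcr8-/- cells.

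Other genes of the translation machinery showed where the 9 genes stood in it. Of 12 other elongation and termination factors that passed the filter, 2 were past the fold upwards after miR-294 (Eef1e1 at 0.86 and Eif5a at 0.55). Downwards, 3 were past it (Eef2k at -1.90, Gspt2 at -1.63 and Gspt1 at -0.61), and the median was -0.06. These were 16.7% and 25% of the list, against 13.6% and 38.9% of all genes. Gspt2 had low counts, with means of 15.2 ± 49.9 (SD over cells) in Dgcr8-/- and 4.91 ± 12.5 in miR-294-transfected cells. Eef2k, the kinase that phosphorylates and inhibits eEF2, had means of 7.28 ± 25.8 in WT, 65.1 ± 165 in Dgcr8-/-, 17.5 ± 58.04 in miR-294-transfected and 91.3 ± 236 in let-7-transfected cells, so that it was high in the mock and let-7 conditions with an SD above its mean in each condition. Eif5a, which helps the ribosome through difficult peptide bonds and was the most abundant of this list, had a mean of 1396 ± 598 in Dgcr8-/- and 2045 ± 529 in miR-294-transfected cells. Abce1, a ribosome recycling factor and the next most abundant by counts, had a log2 ratio of 0.50 after miR-294, just short of the fold. After let-7, 4 of the 12 (33.3%) were past the fold upwards, Eif5a2, Etf1 and Eef1e1 the farthest, and 2 (16.7%) downwards, Gspt2 and Gspt1. These shares were near the 35% and 19.4% of all genes. Eif5a2 had low counts, with means of 4.29 ± 18.96 in Dgcr8-/- and 9.36 ± 35.6 in let-7-transfected cells.

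Of 37 initiation factors, 3 were past the fold upwards after miR-294 (Eif4g3, Eif1b and Eif2b2) and 1 downwards (Eif5b, at -0.64), or 8.11% and 2.70% against 13.6% and 38.9% of all genes, with a median of 0.11. After let-7, 6 (16.2%) were past it upwards, led by Eif4g3 at 3.03, Eif1b at 1.67 and Eif1 at 0.76, against 35% of all genes. Eif4g3 had low counts, with means of 3.37 ± 13.4 (SD over cells) in Dgcr8-/- and 27.6 ± 85.3 in let-7-transfected cells. So had Eif1b, with 6.36 ± 32.5 and 20.2 ± 44.5. Downwards, 5 (13.5%) were past the fold, against 19.4% of all genes. They were led by the cap-binding proteins Eif4e2 at -1.26 and Eif4e at -0.92 and by Eif3l at -0.87. Eif2s2 and Eif3a, the 2 with the most counts, had log2 ratios of 0.03 and 0.04 after miR-294. Among 12 other TOP mRNAs, Vim, an intermediate filament gene, was the 1 gene past the fold after miR-294, at -1.27, and after let-7, at 1.45. Its mean was 148 ± 116 in WT, 681 ± 487 in Dgcr8-/-, 281 ± 247 in miR-294-transfected and 1859 ± 1190.3 in let-7-transfected cells. Rack1, a protein of the small ribosomal subunit and the most abundant of this list, had a log2 ratio of 0.18 after miR-294 and -0.32 after let-7, and Hnrnpa1, an RNA-binding protein gene and the next most abundant, 0.29 and -0.33.

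Regulators of TOP mRNAs and mTORC1 differed in both directions, as all genes did. The counts in this paragraph stand beside 13.6% of all genes past the fold upwards and 38.9% downwards after miR-294. After let-7 the shares of all genes were 35% and 19.4%. Of 13 that passed the filter, 4 were past the fold upwards after miR-294, which were Mlst8 at 0.95, Eif4ebp1 (a repressor of cap-dependent initiation) at 0.71, Rheb at 0.57 and Larp1 at 0.56, and 2 downwards, Tsc1 at -1.13 and Rps6kb1 at -0.67. After let-7, 3 were past it upwards (Rheb, Larp1 and Larp4b) and 5 downwards, led by Eif4ebp2, Mlst8 and Rps6kb1. Eif4ebp1 and Larp4b had the most counts of this list. Mlst8 had low counts, with means of 14.2 ± 39.3 in Dgcr8-/-, 27.4 ± 54.4 in miR-294-transfected and 5.59 ± 13.6 in let-7-transfected cells. Tsc1 had means of 58.2 ± 235 in Dgcr8-/- and 26.5 ± 43.7 in miR-294-transfected cells, with an SD above the mean in both. Larp1 had means of 204 ± 258 in WT, 102 ± 142 in Dgcr8-/-, 149 ± 129 in miR-294-transfected and 175 ± 230.3 in let-7-transfected cells, with wide overlap. Of the 7 genes around the poly(A)-binding protein, 1 was past the fold upwards after miR-294 (Pabpc4) and 3 downwards (Paip2b at -1.21, and Pan2 and Paip1 at -0.53 each), with a median of -0.46, and after let-7 3 were past it upwards (Pabpn1, Paip2 and Pan3) and 0 downwards. Pan3 and Paip2 had the most counts. Paip2b had means of 123 ± 174 in Dgcr8-/- and 53.3 ± 70.4 in miR-294-transfected cells. Those of Pan2 were 68.1 ± 167 and 47.1 ± 115, so that the SD was above the mean for both genes. Pabpc4, a second cytoplasmic poly(A)-binding protein, was lower in Dgcr8-/- than in WT cells by a log2 ratio of -2.58 and higher after miR-294 by 1.51. As for Pabpc1, its mean was highest in WT and next highest in miR-294-transfected cells. Of 9 mitochondrial translation factors, 0 were past the fold upwards after miR-294 and 2 downwards (Mtrf1l at -2.08 and Guf1 at -2.06). Mtrf1l had low counts, with means of 6.58 ± 22.4 in Dgcr8-/- and 1.55 ± 5.38 in miR-294-transfected cells. So had Guf1, with 31.6 ± 67.7 and 7.61 ± 15.7. After let-7, 1 was past the fold upwards, Mtif3 at 1.57. Tufm, the mitochondrial counterpart of eEF1A, and Gfm1, the 2 with the most counts, had log2 ratios of -0.15 and -0.41 after miR-294. Lists of so few genes give shares that 1 gene changes by much, and nothing particular to them is read from these counts.

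**Figure D4:**
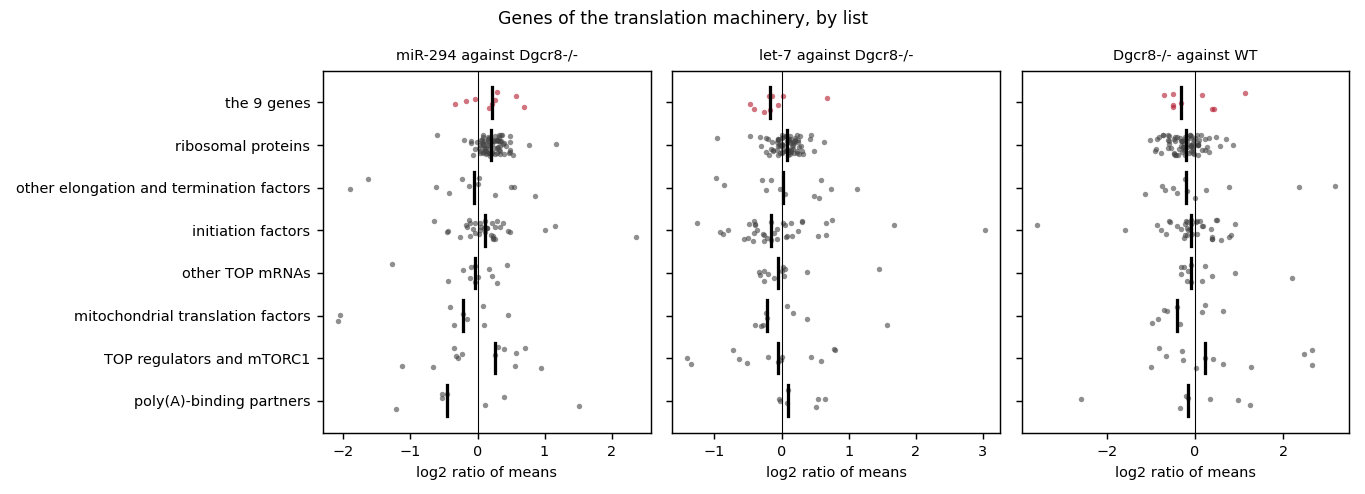
Log2 ratios of mean normalized counts for genes of the translation machinery by list (1 point per gene that passed the filter, bar at the median) in 3 comparisons. After miR-294 the median was 0.21 for ribosomal protein genes, and most of them lay close to it. The median of the 9 genes, also 0.21, includes Eef1g and Cnbp, which were chosen on this contrast, and describes the choice.

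Cells of a condition did not order the 9 genes as one block. Over the 36 pairs of genes, the median Pearson r of log2 levels was 0.01 in WT (16 cells), 0.11 in Dgcr8-/- (60 cells), 0.10 in miR-294-transfected (58 cells) and -0.02 in let-7-transfected cells (48 cells). Over pairs of ribosomal protein genes it was 0.42, 0.39, 0.38 and 0.30, and over pairs of the 529 abundant genes it lay between 0.00 and 0.02. All genes of a cell share its library and size factor, so these values are descriptions. Eef1a1 and Eef2 had r of 0.41, 0.46, 0.29 and 0.32 in WT, Dgcr8-/-, miR-294-transfected and let-7-transfected cells. Eef1g and Pabpc1 had r of 0.60, 0.19, 0.33 and 0.56. Tpt1 was below 0 with Eef1g and with Eef2 in each condition, from -0.15 to -0.44 with Eef1g and from -0.14 to -0.43 with Eef2. Eef1g and Cnbp, the pair that led the list, had r of 0.69 in WT and 0.25 in Dgcr8-/- cells but -0.10 in miR-294-transfected and -0.14 in let-7-transfected cells.

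**Figure D5:**
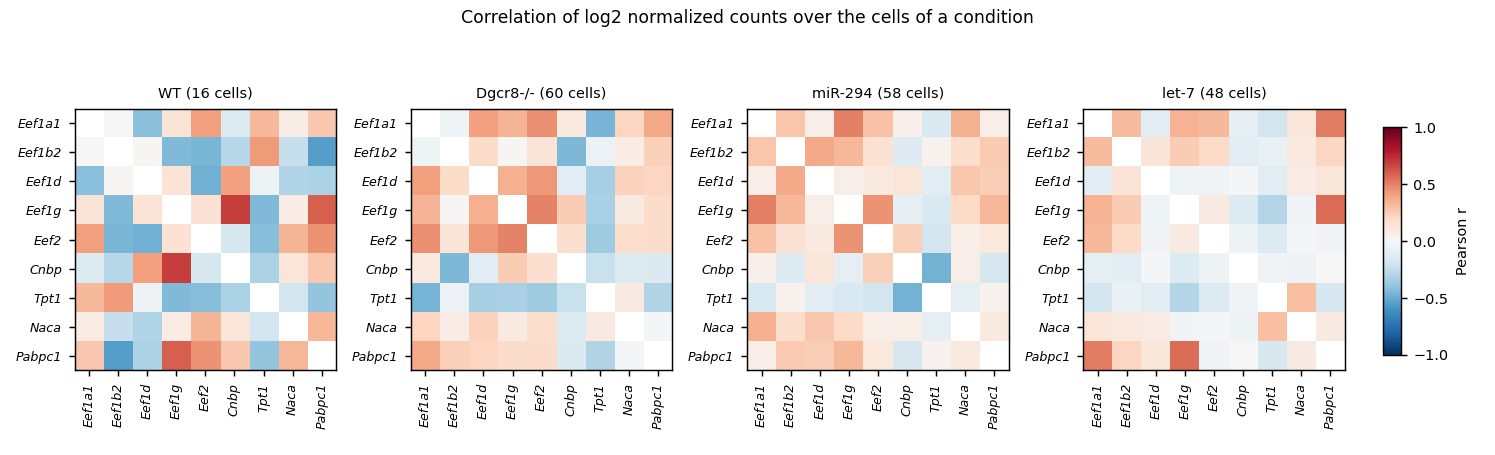
Pearson r of log2 normalized counts between the 9 genes over the cells of each condition (colour scale from -1 to 1, the diagonal left blank). Tpt1 is mostly blue against the elongation factors, and in Dgcr8-/- cells r was -0.46 with Eef1a1.

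By mean r within the 4 conditions, among 5334 genes whose mean count was 50 or more, the 6 genes most like the mean log2 level of the 9 were Gapdh (0.66), Hsp90ab1 (0.62), Rplp0 (0.55), Gm13456 (0.55), Rack1 (0.54) and Rpl8 (0.53). Gm13456 shares 64.9% of its 31-base stretches with Eef1a1. Hsp90ab1, Gapdh and Rack1 were also the 3 most like Eef1g, at 0.55, 0.54 and 0.48, whereas Stip1, Ldha and Slc25a5 were the 3 most like Cnbp, at 0.48, 0.48 and 0.47. Of these genes, Gapdh and Hsp90ab1 had log2 ratios of 0.05 and -0.20 after miR-294.

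Variation between cells differed among the genes. In Dgcr8-/- cells the coefficient of variation was 27.8% for Eef1a1 and 27.8% for Naca, lower than in over 99% of the 529 abundant genes, and 61.1% for Pabpc1, above the middle of these genes. In miR-294-transfected cells it was 39.9% for Eef1a1, 29.6% for Cnbp and 34.4% for Pabpc1, and in let-7-transfected cells it was 31.2%, 55.9% and 63.3%. The median over the 529 abundant genes was 52.4% in WT, 59.1% in Dgcr8-/-, 47.8% in miR-294-transfected and 61.6% in let-7-transfected cells. Cnbp and Pabpc1 thus had their lowest value after miR-294 and their highest after let-7, as the median of the abundant genes did, whereas Eef1a1 had its highest after miR-294.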

How the data were processed

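Single-cell RNA-seq was analysed for 182 cells in 232 runs. For each run the authors aligned reads to Gencode M4 transcripts with RSEM 1.2.19 and deposited an expected count and an FPKM per gene. Expected counts, as deposited, are estimated and not normalized, and RSEM shares reads of near-identical copies between genes. The authors had kept cells with enough reads and target downregulation, and had discarded capture sites with several or dead cells by eye, so no doublet caller was run. The library kit does not keep the strand.

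Here the expected counts of a cell's runs were summed and divided by DESeq-type size factors (median ratio over 862 genes counted in every cell), and the 11186 genes whose mean count reached 5 were kept. The counts were rounded to whole numbers before scaling, and no count model was fitted. A comparison gives the log2 ratio of mean normalized counts. A pseudocount of 1 was used for log2 values of single cells. TPM was obtained from the deposited FPKM by rescaling each run to a total of 1000000. Gene symbols were matched for 41674 of 42493 IDs, and positions, transcripts and UTRs are from Gencode M21 (GRCm38). No test was run, since a condition is 1 sample, and a fit with cells as replicates was not made. The ratio and scaling steps were tested on simulated data. Python 3.11.15, numpy 2.4.6 and scipy 1.17.1 were used, and edgeR 4.0.16 gave the TMM factors of an alternative.

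The genes, lists and alternatives were chosen with earlier results of these data known. In each list, genes past the fold after either mimic were named, at most the 3 largest in each direction (a gene named in one comparison may be given in another), with the 2 of most counts. The threshold of 10 on the chi-square per gene, which separated near-identical cells, was set after its values were seen.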

Additional observations from a re-analysis of the deposited data

How the results depend on the processing

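Each of the 36 log2 ratios (9 genes in 4 comparisons) was recomputed under 11 alternatives, and each new value stayed within 1 SD over cells of the first. That SD ran from 0.40 to 1.21 and is a spread of single cells. Staying within it therefore does not measure how stable a ratio of means is, for which the shifts and signs below are given. The largest shifts were 0.25 with means of log2 values (0.22 at a pseudocount of 10), 0.23 with total counts, 0.18 with TMM factors and 0.17 with single cells left out, and at most 0.10 under the others. The sign turned for 4 of the 36 with total counts, 3 with TMM factors, 2 with means of log2 values at either pseudocount, 2 without cells under 1000000 counts (Eef2 after let-7, and Eef1a1 in miR-294-transfected against WT cells) and 1 with the first run of each cell. The number of the 9 genes past the fold kept within 1.5 times its value with these exceptions. After let-7, 1 gene in place of 0 was past it downwards with total counts, TMM factors, means of log2 values at a pseudocount of 1 or 10, or without cells under 1000000 counts. For miR-294-transfected against WT cells, 1 in place of 0 was past it downwards without those shallow cells or without the 2 cells whose runs differ, an alternative chosen after seeing the data. At a log2 ratio of 0.25 the counts upwards and downwards were 4 and 1 after miR-294, 1 and 3 after let-7, 3 and 5 for Dgcr8-/- against WT cells, and 4 and 1 for miR-294-transfected against WT cells, while the shares of all genes in the same order were 22.7% and 51.3%, 46.6% and 28.3%, 53.1% and 28.1%, and 41.9% and 37.3%. At a log2 ratio of 1 they were 0 and 0, 0 and 0, 1 and 0, and 1 and 0, beside 5.63% and 20.3%, 18.7% and 9.13%, 29.8% and 9.62%, and 21.4% and 13.7% of all genes. With single cells left out, the counts ranged from 2 to 2 upwards and 0 to 0 downwards after miR-294, from 1 to 1 and 0 to 0 after let-7, from 1 to 2 and 1 to 4 for Dgcr8-/- against WT cells, where Tpt1 passed the fold without WT cell 11 (0.60 in place of 0.43), and from 1 to 1 and 0 to 1 for miR-294-transfected against WT cells, by Pabpc1 at -0.49. The median r over pairs of genes stayed within the SD over pairs with total counts or Spearman's rho, but its sign turned in WT cells with total counts (-0.07) and in let-7-transfected cells with either (0.08 and 0.04). No paired analysis was possible because the numbers in the sample titles mark cells and their runs, no condition shares an animal or culture with another by the labels, and no test was run. Each of the 9 genes was counted in every cell, while with 1 circuit per condition the spread between cultures is unknown.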

Other observations

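Within the eEF1B complex, the log2 ratio of Eef1d to Eef1b2 counts within a cell had a mean of -0.69 ± 0.76 (SD, 16 cells) in WT, -1.47 ± 0.98 (60 cells) in Dgcr8-/-, -1.25 ± 0.58 (58 cells) in miR-294-transfected and -1.69 ± 1.41 (48 cells) in let-7-transfected cells. WT cells had the highest mean, at a distance from Dgcr8-/- cells of about the SD over cells, and a Dgcr8-/- cell exceeded a WT cell with a probability of 0.26. The ratio of Eef1g to Eef1b2 had means of 1.33 ± 0.84, 0.85 ± 0.75, 1.28 ± 0.49 and 0.72 ± 0.90 in the same order. In miR-294-transfected and Dgcr8-/- cells this ratio uses the Eef1g values that chose the list, so their difference describes the choice.

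The ratio of Eef2 to Eef1a1 within a cell had means of -4.29 ± 0.61 in WT, -3.66 ± 0.84 in Dgcr8-/-, -3.18 ± 0.82 in miR-294-transfected and -3.42 ± 0.80 in let-7-transfected cells. For this ratio, unlike those of Eef1g and Cnbp to Eef1a1, miR-294-transfected cells lay farthest from WT cells, and the miR-294-transfected cell was the higher of a pair with a WT cell with a probability of 0.86.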
